A study of Mus musculus with 14 samples.

Results

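The 8 genes described here, S100a8, S100a9, Csf3r, Ly6g, Retnlg, Ngp, Camp and Ltf, are genes of the neutrophil, a short-lived white blood cell that engulfs microbes. They were chosen by gene symbol, and each matched 1 of the 45706 genes in the count table. RNA of mouse liver had been sequenced in 14 libraries from male C57BL6/J mice, which entered the study at 8 weeks of age. The MASH OAL group (3 libraries, replicates 1, 2 and 4) ate a MASH diet (Research Diets #D17010103), a feed that causes metabolic dysfunction-associated steatohepatitis, or MASH (a liver loaded with fat, inflamed and scarred), for 16 weeks and for 6 more weeks while treated with C18:1-leucine, leucine coupled to the fatty acid C18:1. The MASH OA group (4 libraries) had the same diet and 6 weeks of treatment with C18:1. The MASH group (3 libraries, replicates 2, 3 and 4) had the MASH diet, with 16 weeks of diet and no treatment weeks recorded. Its titles do not say whether vehicle was given. The CD group (4 libraries) ate standard chow from LabDiet, also with 16 weeks and no treatment weeks recorded. All mice thus shared strain and sex, and no dose is given in the sources used here. No age at collection is recorded here, so treated and untreated groups may differ in age and time on diet. The labels do not say that each library came from a separate mouse, so p-values measure only the spread between libraries.

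Neutrophils are made in the bone marrow under the hormone G-CSF and circulate for a short time before entering tissue. While they mature they fill granules in a fixed order: primary (azurophil) granules with Mpo, Elane and Prtn3 are made first, secondary granules with Ngp, Camp and Ltf next, and the transcripts of both are largely switched off before the cell leaves the marrow. S100a8 and S100a9 remain highly expressed in the circulating cell, and the steatotic, inflamed liver is a tissue that neutrophils are known to enter.

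In 2 of the 14 libraries the title and the treatment tag contradict each other. MASH OAL replicate 1 was tagged as treated with OA, and MASH OA replicate 1 carried a tag for the diet alone. The titles were followed. Replicate 1 of MASH OAL also stood apart in most of the 8 genes, so each result that rests on it is given with and without that library. Total counts ran from 33821874 in MASH OA replicate 2 to 51107248 in MASH OAL replicate 1. Values below are CPM, the counts of a gene as a share of its library, in the unit that CPM usually stands for, with library sizes scaled by the trimmed mean of M-values (TMM). In that unit a library with no read of a gene still allows a level of up to between 0.0587 and 0.0887 CPM (3 counts of the unscaled total; counting error only). Genes of hepatocytes, the main cells of the liver, were present in every library, with a summed level of 65800 to 88000 CPM in MASH OAL, 46100 to 56200 CPM in MASH OA, 57500 to 65600 CPM in MASH and 84300 to 108000 CPM in CD libraries. Pancreatic genes reached 761 CPM in MASH OAL replicate 2 and 150 CPM in CD replicate 2.

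The genes lie on 5 chromosomes (GRCm38, GENCODE M21 coordinates). S100a8 (chr3:90668978-90670035, plus strand) and S100a9 (chr3:90692632-90695721, minus strand) are neighbours 22.6 kb apart. Camp (chr9:109847379-109849617, minus strand), Ngp (chr9:110419747-110423012, plus strand) and Ltf (chr9:111019271-111042767, plus strand) follow each other on chromosome 9, with gaps of 570.1 and 596.3 kb. Csf3r (chr4:126024550-126044440), Ly6g (chr15:75155240-75159126) and Retnlg (chr16:48872621-48874496) are each on the plus strand of a chromosome of their own. The promoters of the chromosome 9 genes and of the S100 pair are shown because those sets were high together in MASH OAL replicate 1. That of Csf3r is shown because it was not high with them in that library. Each window runs from 250 bases before to 50 after the start of the gene (RefSeq, GRCm38.p6, written 5′ to 3′ on the strand of the gene). Capitals mark TTNNGNAA, a core motif of the C/EBP factors of granulocyte development, and GAGGAA, a core motif of PU.1, on either strand (TTCCTC is the reverse complement of GAGGAA). No matches overlapped in the 6 windows.
Ngp (chr9:110419558-110419857, plus strand): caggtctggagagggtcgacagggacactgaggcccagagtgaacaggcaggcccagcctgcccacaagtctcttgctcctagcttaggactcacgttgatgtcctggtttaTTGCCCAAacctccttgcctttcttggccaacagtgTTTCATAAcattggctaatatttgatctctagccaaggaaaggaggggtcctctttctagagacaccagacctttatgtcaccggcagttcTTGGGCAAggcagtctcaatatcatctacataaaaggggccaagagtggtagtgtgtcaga
Camp (chr9:109849407-109849706, minus strand): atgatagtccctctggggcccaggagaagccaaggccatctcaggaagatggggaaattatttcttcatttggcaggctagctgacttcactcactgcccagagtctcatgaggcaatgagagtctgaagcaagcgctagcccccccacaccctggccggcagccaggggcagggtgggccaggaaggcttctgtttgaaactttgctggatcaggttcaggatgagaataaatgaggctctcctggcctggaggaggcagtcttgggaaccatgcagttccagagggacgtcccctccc
Ltf (chr9:111019042-111019341, plus strand): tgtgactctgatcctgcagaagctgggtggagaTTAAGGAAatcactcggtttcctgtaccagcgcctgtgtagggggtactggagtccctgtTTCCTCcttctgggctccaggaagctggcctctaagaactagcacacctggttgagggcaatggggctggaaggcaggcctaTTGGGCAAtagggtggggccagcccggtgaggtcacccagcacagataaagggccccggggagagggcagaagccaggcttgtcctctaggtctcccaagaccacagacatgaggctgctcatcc
S100a8 (chr3:90668821-90669120, plus strand): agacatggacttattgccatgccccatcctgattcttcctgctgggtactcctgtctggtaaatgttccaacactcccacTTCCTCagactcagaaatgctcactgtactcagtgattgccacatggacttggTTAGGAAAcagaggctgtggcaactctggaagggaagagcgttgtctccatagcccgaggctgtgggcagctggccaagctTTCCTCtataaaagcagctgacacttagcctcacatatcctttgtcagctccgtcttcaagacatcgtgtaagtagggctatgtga
S100a9 (chr3:90695672-90695971, minus strand): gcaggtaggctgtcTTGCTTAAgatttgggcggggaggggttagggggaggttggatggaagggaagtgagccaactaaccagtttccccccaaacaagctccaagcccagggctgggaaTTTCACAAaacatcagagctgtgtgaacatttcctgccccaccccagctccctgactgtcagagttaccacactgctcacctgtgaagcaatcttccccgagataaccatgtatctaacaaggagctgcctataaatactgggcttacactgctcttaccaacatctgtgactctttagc
Csf3r (chr4:126024409-126024708, plus strand): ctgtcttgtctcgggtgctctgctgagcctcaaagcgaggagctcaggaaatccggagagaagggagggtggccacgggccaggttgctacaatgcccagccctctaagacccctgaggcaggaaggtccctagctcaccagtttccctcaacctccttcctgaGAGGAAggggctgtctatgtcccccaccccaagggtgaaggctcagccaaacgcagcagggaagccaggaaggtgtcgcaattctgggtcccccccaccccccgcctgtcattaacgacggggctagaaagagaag

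Ngp held 3 matches to TTNNGNAA, Ltf 2 and Camp none. S100a9 held 2 and S100a8 held 1, while Csf3r held none. GAGGAA had 2 matches in S100a8 and 1 each in Ltf and Csf3r. Counting all 8 genes, which have 9 windows because Ly6g has a pair of starts, 6 genes held TTNNGNAA and 4 held GAGGAA. Of all 32851 mouse promoter windows of that length, 40.7% held TTNNGNAA and 28.3% held GAGGAA. Such a match is a description of the letters, not a site of binding.

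Across the 4 groups 1 library decided the highest values. MASH OAL replicate 1 was the highest of the 14 libraries for 7 of the 8 genes, and MASH OA replicate 2 was second each time. In Csf3r, the remaining gene, it ranked 8 of 14. The sum over the 8 genes was 65.0, 5.24 and 5.32 CPM in MASH OAL replicates 1, 2 and 4. It was 13.2, 25.6, 12.7 and 13.7 CPM in MASH OA, 12.4, 12.2 and 8.98 CPM in MASH and 8.6, 6.67, 3.3 and 4.18 CPM in CD libraries. The other MASH OAL libraries were thus below every MASH OA and MASH library and within the range of chow. They are those left after the library high in these same genes is set aside. No share over all tested genes was taken for them alone. With all MASH OAL libraries, 12% of tested genes lay below every MASH library and 14.2% below every MASH OA library. In bulk RNA, fewer cells of a type and less RNA per cell cannot be told apart.

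S100a8 and S100a9 encode the subunits of calprotectin, a metal-binding alarmin that is abundant in the neutrophil cytosol. S100a8 measured 14.9, 0.518 and 0.693 CPM in MASH OAL replicates 1, 2 and 4, against 1.74, 4.57, 1.98 and 1.39 CPM in MASH OA, 1.78, 1.90 and 1.17 CPM in MASH and 1.58, 1.01, 0.503 and 0.765 CPM in CD libraries. S100a9 measured 22.3, 0.648 and 0.805 CPM in MASH OAL, against 2.21, 7.19, 3.09 and 2.24 CPM in MASH OA, 3.27, 3.61 and 1.74 CPM in MASH and 2.36, 2.22, 0.705 and 1.15 CPM in CD libraries. For both, the MASH OAL libraries lay at both ends. Replicate 1 was over 3 times the next library (3.25-fold for S100a8 and 3.10-fold for S100a9). Replicates 2 and 4 were below all MASH OA and MASH libraries, a position for which no share over all tested genes was taken. The group means reflected this spread, with S100a9 at 7.91 ± 12.4 CPM in MASH OAL (SD, n = 3), 3.68 ± 2.37 in MASH OA (n = 4), 2.87 ± 0.998 in MASH (n = 3) and 1.61 ± 0.81 in CD (n = 4). The pair kept close to a fixed ratio: S100a9 had 1.16 to 2.21 counts per count of S100a8 in the 14 libraries and 1.5 in MASH OAL replicate 1.

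Csf3r encodes the receptor of G-CSF and is also expressed by monocytes. It measured 5.02, 3.66 and 3.62 CPM in MASH OAL, 7.78, 11.2, 7.01 and 9.39 CPM in MASH OA, 6.33, 6.38 and 5.63 CPM in MASH and 4.17, 2.82, 1.84 and 1.91 CPM in CD libraries. Its mean was highest in MASH OA (8.85 ± 1.88 CPM, SD, n = 4), then MASH (6.11 ± 0.423, n = 3), MASH OAL (4.10 ± 0.801, n = 3) and CD (2.68 ± 1.09, n = 4). Neighbouring groups in that order did not overlap except MASH OAL and CD, so that Csf3r separated the libraries in 5 of the 6 comparisons. Retnlg, the other of the 8 genes with groups apart, did so in 1 comparison, MASH OA above MASH. Of all tested genes, 22.5% stood apart in the direction of Csf3r in MASH against CD and 24.6% in MASH OA against CD. The share was 2.78% in MASH OA against MASH, 12% in MASH OAL against MASH and 14.2% in MASH OAL against MASH OA.

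Ly6g encodes the surface antigen by which mouse neutrophils are usually sorted, and Retnlg a resistin-like secreted protein of granulocytes. Ly6g was near the limit of detection, with 12, 0 and 0 counts in MASH OAL, 2, 5, 0 and 1 in MASH OA, 1, 0 and 0 in MASH and 0 in each of the 4 CD libraries. Retnlg measured 1.40, 0.233 and 0.179 CPM in MASH OAL, 0.361, 0.852, 0.395 and 0.435 CPM in MASH OA, 0.290, 0.206 and 0.205 CPM in MASH and 0.316, 0.385, 0.252 and 0.265 CPM in CD libraries. Retnlg was the highest in MASH OAL replicate 1, at 1.64-fold the next library, and the MASH and CD libraries overlapped.

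The secondary granule genes were low in 13 of the 14 libraries, at 0.710 CPM or less. Ngp, neutrophilic granule protein, measured 11.2, 0.0778 and 0 CPM in MASH OAL, from 523, 3 and 0 counts. It measured 0.662, 0.710, 0.0719 and 0.0869 CPM in MASH OA, 0.228, 0.0229 and 0.123 CPM in MASH and 0.0288, 0.178, 0 and 0.0883 CPM in CD libraries. Replicate 1 of MASH OAL was 15.8-fold above the next library, while the other MASH OAL libraries overlapped every group. Ltf encodes lactoferrin, an iron-binding protein. It measured 7.24, 0.0259 and 0.0224 CPM in MASH OAL (337, 1 and 1 counts), 0.281, 0.710, 0.108 and 0.0869 CPM in MASH OA, 0.393, 0.0686 and 0.0818 CPM in MASH and 0.115, 0.0593, 0 and 0 CPM in CD libraries. Camp encodes the precursor of the antimicrobial peptide cathelicidin. It had 125, 3 and 0 counts in MASH OAL, 5, 7, 1 and 2 in MASH OA, 4, 1 and 2 in MASH and 1, 0, 0 and 0 in CD libraries, and its 2.68 CPM in MASH OAL replicate 1 was 13.5-fold the next value. For Ltf that ratio was 10.2. In MASH OA the higher values of all 3 genes were those of replicates 1 and 2.

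The makeup of the signal differed as well as its sum. Ngp, Camp and Ltf held 32.6% of the counts of the 8 genes in MASH OAL replicate 1 (exact 95% binomial interval 30.9% to 34.3%) and 0% to 7.91% in the other 13 libraries. Csf3r held 7.73% in that library and 42.2% to 69.8% in the others. For each count of Csf3r there were 7.39 counts of S100a8 and S100a9 in MASH OAL replicate 1 and 0.319 to 1.15 in the others. No library was between these ranges.

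**Figure D1:**
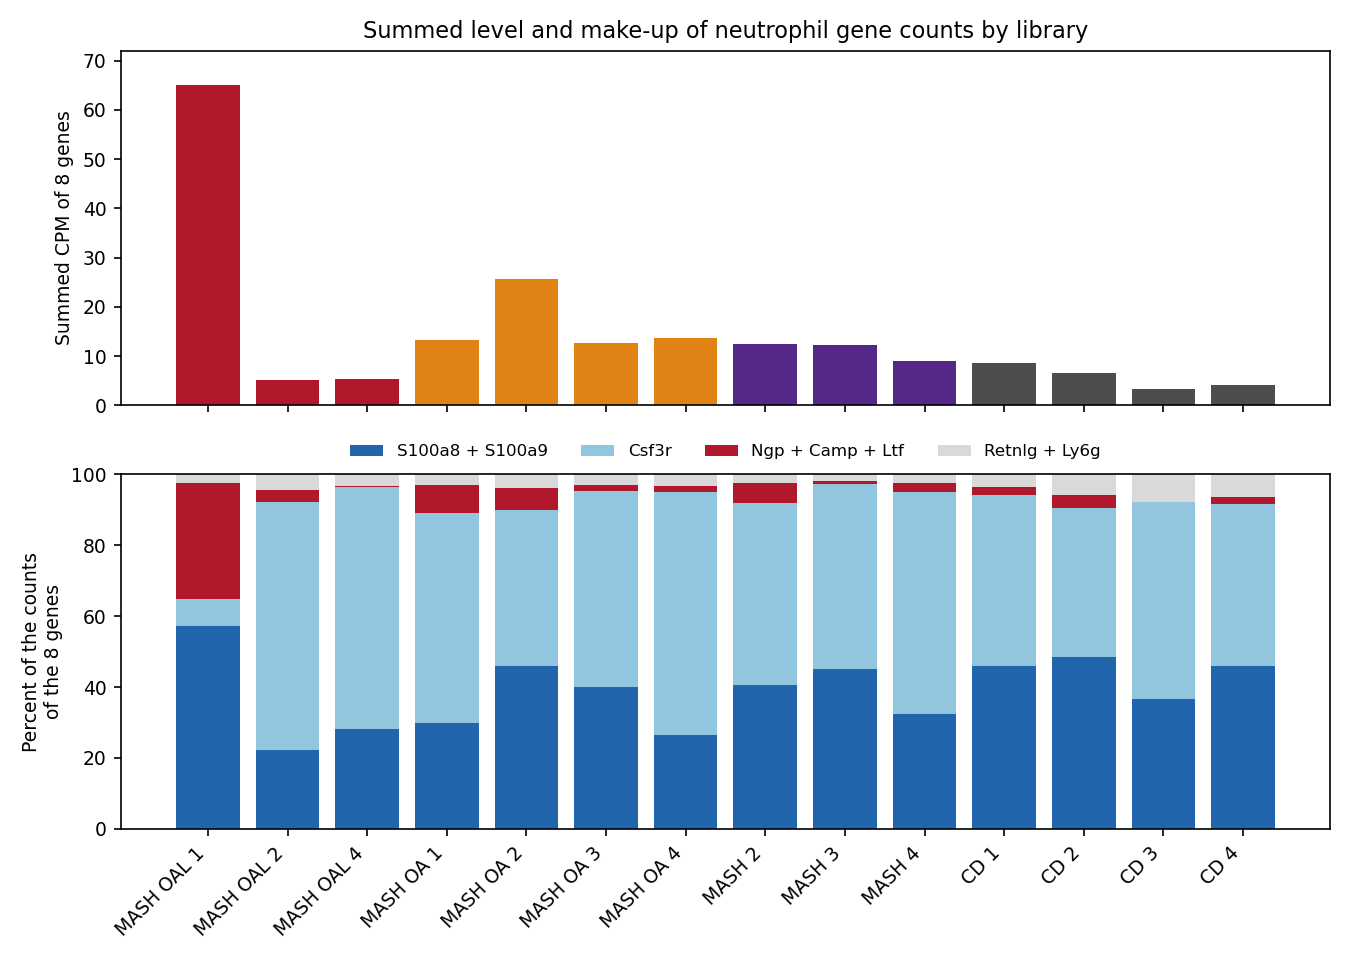
Summed CPM of the 8 genes in each library (upper panel) and the percent of their counts from S100a8 and S100a9, from Ngp, Camp and Ltf, from Csf3r and from Retnlg and Ly6g (lower panel). MASH OAL replicate 1 has both the highest sum, 65.0 CPM, and the largest share of Ngp, Camp and Ltf, 32.6%.

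Per kilobase of exon, the order of the mean levels within CD libraries was S100a9 at 3.08 CPM per kb, S100a8 at 1.39, Csf3r at 0.744 and Retnlg at 0.514, with Ngp at 0.0603, Ltf at 0.0126, Camp at 0.00949 and Ly6g at 0. In MASH OAL it was S100a9 at 15.2 CPM per kb, S100a8 at 7.72, Ngp at 3.08, Camp at 1.21, Csf3r at 1.14, Retnlg at 1.02, Ltf at 0.704 and Ly6g at 0.0912. The higher place of Ngp and Camp there rests on replicate 1. So do the higher means of S100a9 and S100a8 there than in CD libraries. Replicates 2 and 4 had 0.648 and 0.805 CPM of S100a9, below the CD mean of 1.61 CPM. For S100a8 they had 0.518 and 0.693 CPM, below the CD mean of 0.964 CPM.

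The tests asked whether the diet and either compound changed these genes. They used edgeR's quasi-likelihood test on all 14 libraries, with p adjusted over the 15674 genes that passed a filter on low counts. Ly6g and Camp did not pass it, which left 6 of the 8 genes. With no filter, Ly6g was not called in any of the 6 comparisons (edgeR adjusted p = 0.187 to 0.827), and Camp was called in MASH OAL against CD alone (edgeR adjusted p = 0.0485), where the CD libraries held 1 count. The comparisons share libraries with each other, so their results are not independent.

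For MASH against CD, 1 of the 6 genes passed an adjusted p of 0.05, where 35.5% of all tested genes did (20.4% higher). Csf3r rose by a log2 fold change of 1.19 ± 0.254 (SE; edgeR adjusted p = 0.00324). S100a8, S100a9 and Ltf had log2 fold changes of 0.75, 0.84 and 2.04 that did not pass, with S100a9's 95% interval from −1.35 to 3.03. The MASH libraries were all above the CD libraries for Csf3r, as for 22.5% of all tested genes. With shares this high in the background, a call for 1 gene of 6 does not set these genes apart from the rest of the transcriptome.

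For MASH OA against CD, Csf3r rose by 1.72 ± 0.241 on the log2 scale (SE; edgeR adjusted p = 8.04e-05) and was again the 1 gene of 6 called, against 52.6% of all tested genes (27.8% higher). All MASH OA libraries were above all CD libraries for Csf3r, as for 24.6% of tested genes. S100a8 at 1.32 ± 0.897, S100a9 at 1.19 ± 0.946 and Ltf at 2.65 ± 1.91 (log2 fold change ± SE) did not pass. Without MASH OAL replicate 1, which belongs to neither group but to the shared estimate of the spread, their log2 fold changes were 1.32 ± 0.411, 1.19 ± 0.457 and 2.66 ± 1.01, and all 3 passed (edgeR adjusted p = 0.0174, 0.0449 and 0.0418). The calls then numbered 4 of 6, against 52.3% of all tested genes (27.8% higher). That library was left out for its values in these same genes, so the added calls are not a separate test.

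For MASH OAL against CD, 2 of the 6 genes were called, against 14.5% of all tested genes (10.2% higher). Ngp had a log2 fold change of 5.68 ± 1.76 (SE; edgeR adjusted p = 0.049) and Ltf of 5.75 ± 1.74 (edgeR adjusted p = 0.0447). Both rest on replicate 1. Without it, Ngp was at −0.91 ± 1.70 and Ltf at −0.75 ± 1.75, none of the 6 genes passed in edgeR (0 at an unadjusted p under 0.05), and 9.98% of all tested genes did. Both adjusted p were close to the threshold, and edgeR called none of the 6 genes in 10 of the 14 fits that left out 1 library. Csf3r was at 0.62 ± 0.258 with all libraries (edgeR adjusted p = 0.122) and at 0.44 ± 0.287 without replicate 1.

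For MASH OA against MASH, edgeR called none of the 6 genes and 0% of all tested genes. None had an unadjusted p under 0.05, as 6.18% of all tested genes did. Neither DESeq2 nor limma voom called any, and DESeq2 gave no adjusted p for S100a8, S100a9 and Ltf in any comparison. Csf3r came closest, with a log2 fold change of 0.53 (95% interval −0.005 to 1.07; edgeR adjusted p = 0.77). Its 4 MASH OA libraries were above the 3 MASH libraries, as were those of 2.78% of tested genes. Retnlg, at 1.10 ± 0.619, was also above in every library.

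For MASH OAL against MASH, edgeR called none of the 6 genes, against 0.0702% of all tested genes. Ngp and Ltf, 2 of the 6, had an unadjusted p under 0.05, as did 18.1% of all tested genes, and neither DESeq2 nor limma voom called any. With all libraries S100a8, S100a9, Retnlg, Ngp and Ltf had positive log2 fold changes, of 1.37 to 4.87, and Csf3r was at −0.57 (95% interval −1.15 to 0.004; edgeR adjusted p = 0.279). All 3 MASH OAL libraries were below all MASH libraries for Csf3r, as for 12% of tested genes. Without replicate 1 all 6 log2 fold changes were negative. S100a9 was then at −1.98 ± 0.643 (SE; edgeR adjusted p = 0.223) and S100a8 at −1.40 ± 0.559 (edgeR adjusted p = 0.305). None passed in edgeR, as for 0% of all tested genes. At an unadjusted p under 0.05 there were 3 of the 6, and no share over all tested genes was taken for that fit. Replicate 1 was left out for its high values in these same genes, so those 3 are not a separate test of a fall.

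For MASH OAL against MASH OA, the comparison of the leucine conjugate with its fatty acid, Csf3r fell by 1.11 on the log2 scale (SE 0.256; edgeR adjusted p = 0.0135). It was the 1 gene of 6 called, against 16.2% of all tested genes (8.89% lower). All MASH OAL libraries were below all MASH OA libraries for Csf3r, as for 14.2% of tested genes. S100a8 at 1.17 ± 0.883, S100a9 at 1.12 ± 0.947, Retnlg at 0.28 ± 0.567, Ngp at 3.34 ± 1.42 and Ltf at 3.10 ± 1.35 did not pass. Without replicate 1 their signs turned. S100a8 was then at −1.98 ± 0.549 and S100a9 at −2.32 ± 0.631 (edgeR adjusted p = 0.0458 and 0.0438), Csf3r was at −1.28 ± 0.297 (edgeR adjusted p = 0.0258), and Retnlg, Ngp and Ltf at −1.28, −3.25 and −3.41 did not pass. The calls were then 3 of 6, against 7.91% of all tested genes (5.1% lower), and they rest on 2 MASH OAL libraries. Replicate 1 was left out for its high values in these same genes, which lowered the group mean and the spread. The calls of S100a8 and S100a9 are therefore not a separate test of a fall, and both adjusted p were close to the threshold.

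**Figure D2:**
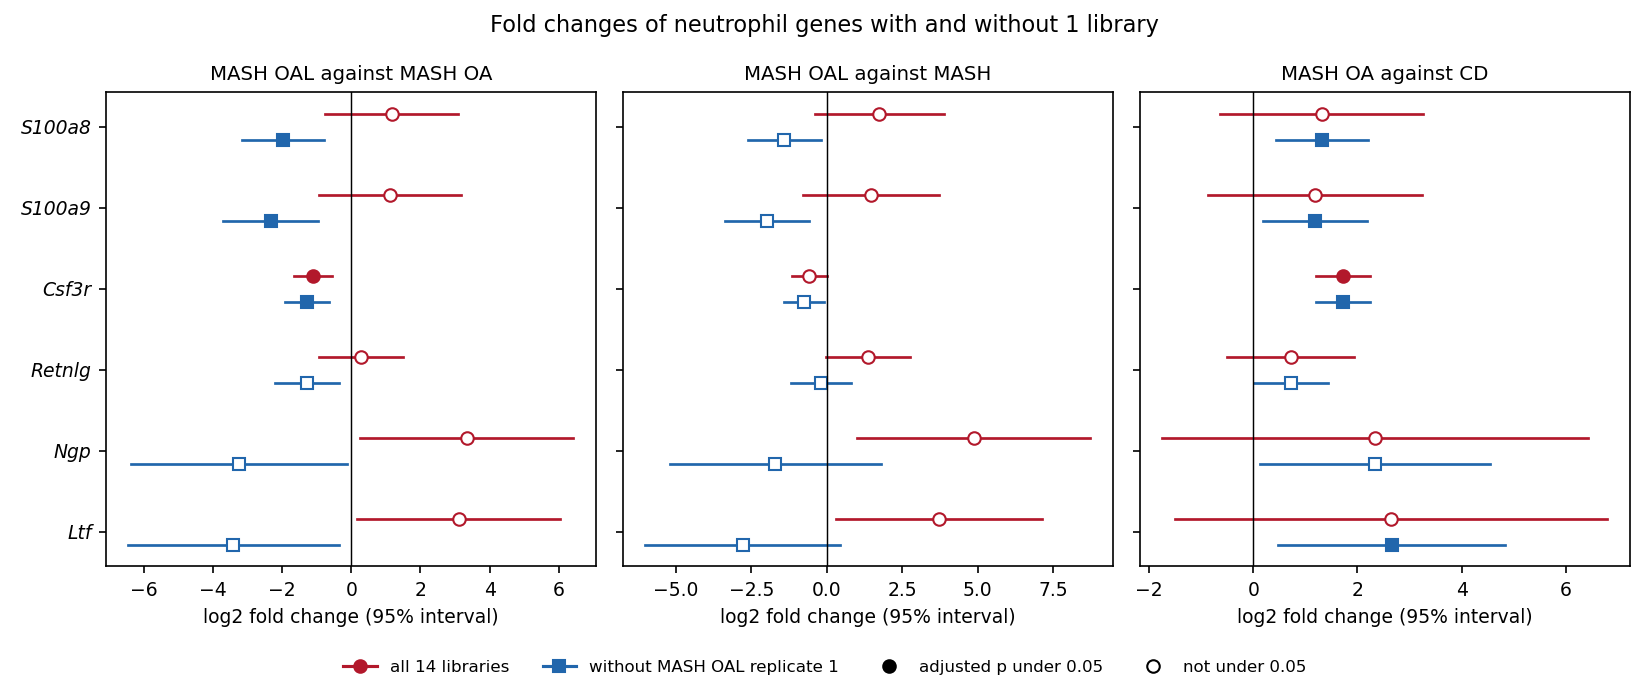
Log2 fold change (x axis) with its 95% interval for the 6 tested genes (y axis) in MASH OAL against MASH OA, MASH OAL against MASH and MASH OA against CD, with all 14 libraries (circles) and without MASH OAL replicate 1 (squares), filled where the adjusted p was under 0.05. Against MASH OA, S100a9 lies at 1.12 with that library and at −2.32 without it, whereas Csf3r lies at −1.11 and −1.28.

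Monocyte genes were called in the same direction as Csf3r, except in MASH OAL against CD. Their summed level over 9 of 9 listed genes was 24.0 to 35.9 CPM in MASH OAL, 47.5 to 66.7 in MASH OA, 38.4 to 50.3 in MASH and 8.91 to 13.2 in CD libraries, with none of the 9 at 0 in any library. All 9 rose in MASH against CD and in MASH OA against CD, where 20.4% and 27.8% of all tested genes did, and 5 of the 9 (Plac8, Ccr2, Vcan, Ms4a4c and Ace) fell in MASH OAL against MASH OA, where 8.89% of all tested genes did. Without replicate 1 of MASH OAL 5 of the 9 fell as well (5.1% of all tested genes), but Ms4a4c and Ace were no longer called and Ly6c2 and Chil3 were. In MASH OAL against CD 7 of the 9 rose (10.2% of all tested genes), and 6 without replicate 1 (7.62%). Csf3r was not called there (edgeR adjusted p = 0.122). The pattern was not limited to monocytes. Of 6 genes of T and natural killer cells, 2 rose in MASH against CD and 6 in MASH OA against CD. In MASH OAL against MASH OA 3 of them fell, and 2 without replicate 1. The part of either set in the Csf3r result was not tested. In the monocyte sum MASH OAL replicate 1, at 35.9 CPM, was below every MASH and MASH OA library.

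Genes of red blood cells also differed between the treated groups. Their summed level was 659, 676 and 355 CPM in MASH OAL and 159 to 412 CPM in MASH OA libraries, with 258 to 288 CPM in MASH and 267 to 403 CPM in CD libraries, and no listed gene found in the table was at 0. All 6 tested, among them Alas2 and Slc4a1, rose in MASH OAL against MASH OA, where 7.34% of all tested genes did. Without replicate 1, 1 of them did, against 2.81% of all tested genes. Replicates 1 and 2 of MASH OAL were both high in these genes, whereas of the pair only replicate 1 was high in the granule genes. Their part in the results on the 8 genes was not tested.

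Other genes of the neutrophil's life were read from lists of known function, and the counts of each list stand beside those of all tested genes. Over all tested genes the share called higher was 20.4% in MASH against CD, 27.8% in MASH OA against CD and 10.2% in MASH OAL against CD (7.62% without MASH OAL replicate 1), and 8.89% were called lower in MASH OAL against MASH OA (5.1% without it). The median log2 fold change over all tested genes was 0.006, −0.007, 0.005 and −0.015 in these comparisons.

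Of the primary granule genes, made earliest in the marrow, Mpo (myeloperoxidase) had 116, 1 and 0 counts in MASH OAL, 4, 10, 0 and 2 in MASH OA, 7, 0 and 0 in MASH and 0 in each CD library. Prtn3 (proteinase 3) measured 18.0, 2.46 and 0.402 CPM in MASH OAL, 1.78, 8.89, 2.59 and 0.522 CPM in MASH OA, 1.37, 1.46 and 1.41 CPM in MASH and 1.04, 1.45, 0.0755 and 0.147 CPM in CD libraries. Ctsg (cathepsin G) had 30 counts in MASH OAL replicate 1 and at most 1 in any other library. As with Ngp, Camp and Ltf, these genes peaked in MASH OAL replicate 1, and Mpo and Prtn3 were next highest in MASH OA replicate 2. Of the 6 listed, 3 were tested: Elane (neutrophil elastase) rose in MASH OAL against CD (log2 fold change 2.57 ± 0.782, edgeR adjusted p = 0.0432) but not without replicate 1 (1.21 ± 0.746, edgeR adjusted p = 0.306), and no primary granule gene was called higher there in 10 of the 14 fits that left out 1 library. Serpinb1a, an inhibitor of these proteases that is not limited to neutrophils, fell in MASH OA against CD (−1.67 ± 0.437, edgeR adjusted p = 0.00668), as did 24.9% of all tested genes.

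Of the other secondary and tertiary granule and oxidase genes, 13 of 14 were tested. In MASH against CD 8 of the 13 rose (20.4% of all tested genes; median log2 fold change 1.64) and none fell. Those that rose included subunits of the oxidase, Itgam, Chil3 and Lcn2, which cells other than neutrophils also express, while the granule proteases Mmp8 and Mmp9, and Cd177, Pglyrp1 and Padi4, did not pass (edgeR adjusted p = 0.188 to 0.757). In MASH OA against CD 10 rose (27.8%; median 2.01), Mmp9 and Pglyrp1 among them, and in MASH OAL against CD 7 rose (10.2%; median 1.16). In MASH OAL against MASH OA 6 fell (8.89%; median −0.87), among them Cyba and Cybb, the membrane subunits of the phagocyte NADPH oxidase, and Itgam, the integrin CD11b, which monocytes and macrophages also express. Cyba fell by 1.05 (SE 0.159; edgeR adjusted p = 0.00329) and Cybb by 1.10 (SE 0.215; edgeR adjusted p = 0.00777) on the log2 scale. Cd177 and Mmp8 did not pass and had positive log2 fold changes, of 0.91 ± 0.913 and 0.63 ± 0.562 (SE). Mmp9, Lcn2, Chil3, Pglyrp1 and Padi4 did not pass and were negative. Cd177, Mmp8, Pglyrp1 and Padi4 were each highest in MASH OAL replicate 1. Cd177 measured 1.67, 0.0519 and 0.0447 CPM in MASH OAL and at most 0.625 CPM in the other groups. Without replicate 1 the falls numbered 8 (5.1% of all tested genes), with Mmp9 and Chil3 added, and the rises in MASH OAL against CD numbered 4 (7.62%). Lcn2, which hepatocytes also make and which is in the recruitment list too, rose in MASH against CD (3.83 ± 1.18, edgeR adjusted p = 0.0248).

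Of the surface and effector genes of the circulating cell, 17 of 22 were tested. In MASH against CD 10 of the 17 rose (20.4% of all tested genes; median 1.64) and none fell, and the chemoattractant receptors Cxcr2, Fpr1 and Fpr2 were among those that did not pass. In MASH OA against CD 11 rose (27.8%; median 1.87) and 1, Wfdc21, fell, and no gene of the list was called lower there in 11 of the 14 fits that left out 1 library. Against CD, 3 rose in MASH OAL (10.2%; median 0.72), and 2 without replicate 1 (7.62%), with 1 to 5 over all fits that left out 1 library. Against MASH OA, 5 fell in MASH OAL (8.89%; median −1.14): Csf2rb, a receptor subunit for GM-CSF, the lectin receptors Clec4a2, Clec4d and Clec4e, and Slfn4. Clec4d fell by 1.86 (SE 0.397; edgeR adjusted p = 0.00987) and Clec4e by 2.61 (SE 0.653; edgeR adjusted p = 0.0191) on the log2 scale. Without replicate 1 the falls numbered 4 (5.1% of all tested genes), and Clec4e, at −2.27 ± 0.738, was not called (edgeR adjusted p = 0.0771). Without replicate 2 they numbered 3. Cxcr2, the receptor for neutrophil chemokines, stood at 0.666 CPM in MASH OAL replicate 1 and at 1.96 CPM in MASH OA replicate 2, unlike the 7 genes that peaked in the MASH OAL library.

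**Figure D3:**
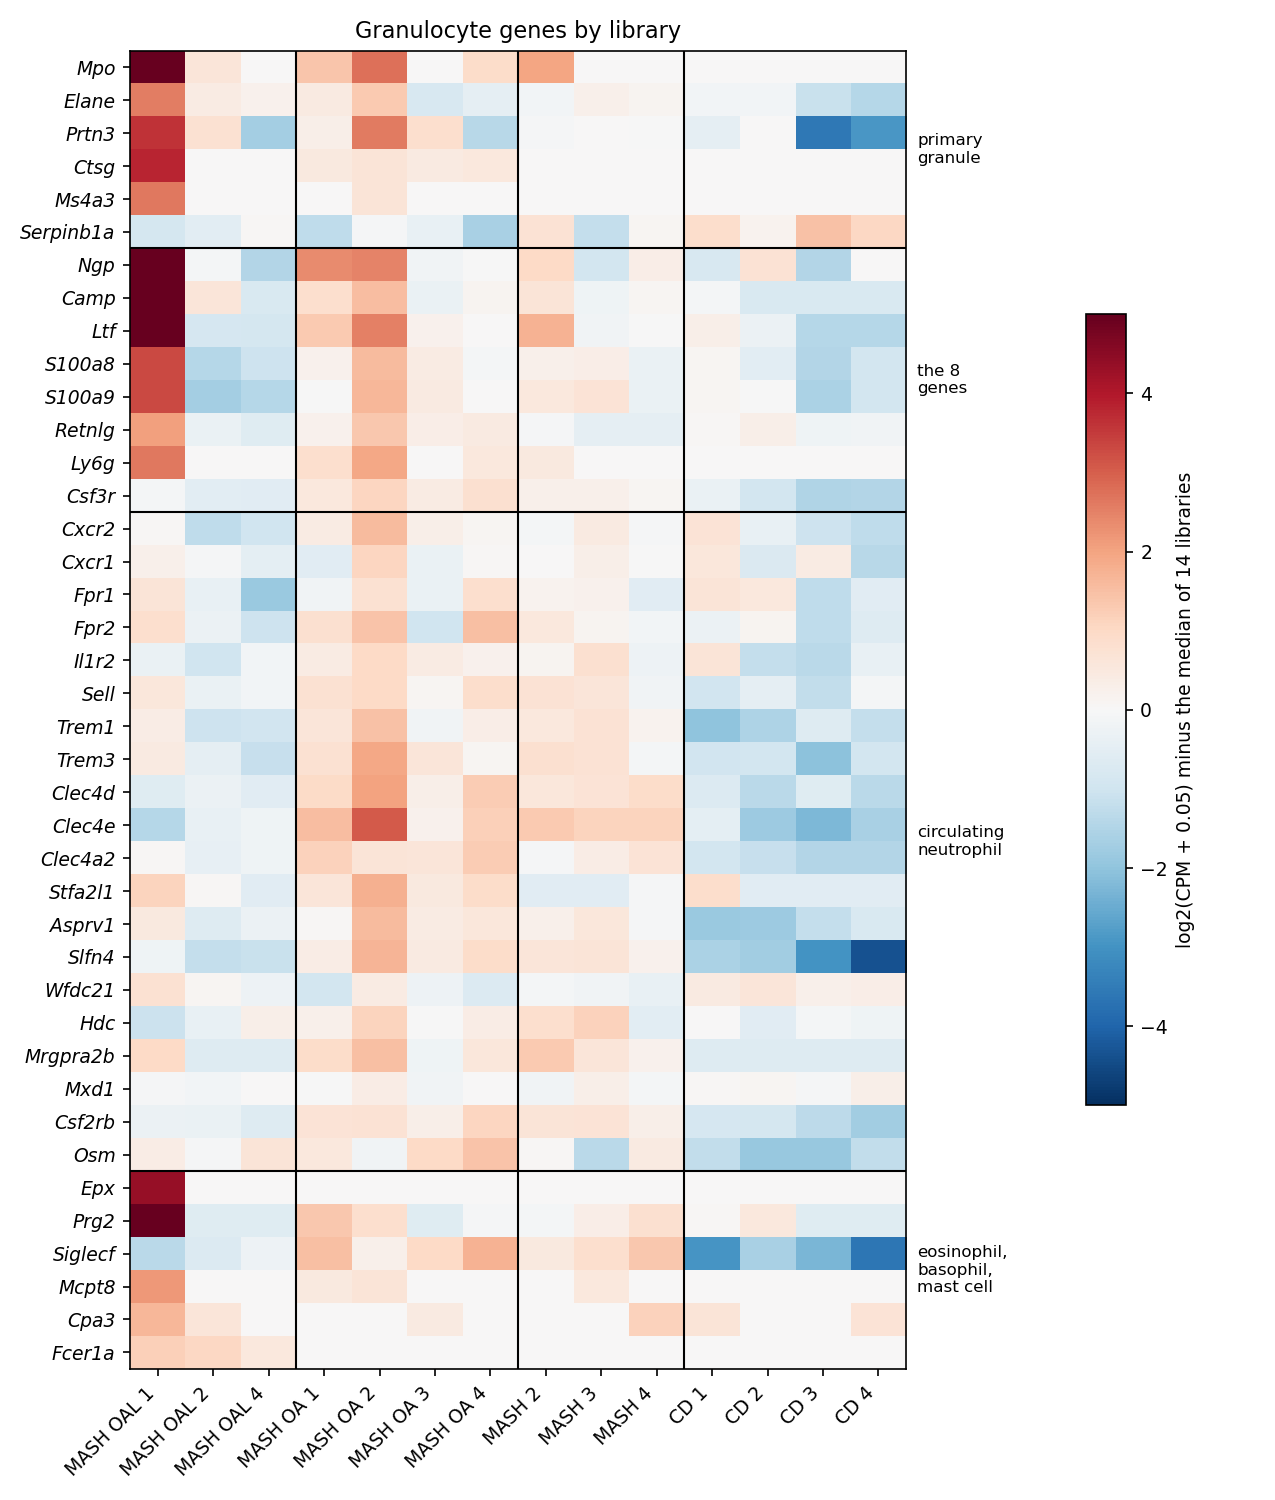
Level of granulocyte genes (rows, in blocks for primary granule genes, the 8 genes, circulating neutrophil genes and eosinophil, basophil and mast cell genes) in each of 14 libraries (columns), as log2(CPM + 0.05) minus the median of the 14 libraries, with colours held at 5 either side of 0. The column of MASH OAL replicate 1 is dark red for Mpo, Ngp, Camp, Ltf, Epx and Prg2 and pale for most circulating neutrophil genes.

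Of the genes that draw neutrophils in or keep them alive, 17 of 22 were tested, and none fell in a comparison with CD. In MASH against CD 12 of the 17 rose (20.4% of all tested genes; median 1.31), in MASH OA against CD 12 (27.8%; median 1.58) and in MASH OAL against CD 6 (10.2%; median 0.76). Without replicate 1 the last count was 5 (7.62%), Ppbp being lost. Cxcl5, a chemokine of the neutrophil receptor, had 0 counts in all 4 CD libraries and few elsewhere, with 7, 2 and 10 in MASH OAL, 28, 9, 13 and 11 in MASH OA and 16, 6 and 20 in MASH libraries. Its level was thus at least 4.22-fold higher in MASH than in CD libraries (edgeR adjusted p = 0.00134) and at least 1.87-fold higher in MASH OAL than in CD libraries (edgeR adjusted p = 0.0156), with CD set at 3 counts per library. Sele, the endothelial selectin, had 27, 35 and 56 counts in MASH and 1, 2, 0 and 1 in CD libraries. Its log2 fold change was 4.75 ± 0.574 for MASH against CD (edgeR adjusted p = 6.92e-05) and 3.06 ± 0.643 for MASH OAL against CD (edgeR adjusted p = 0.00825), sizes that rest on those few CD counts. In MASH OAL against MASH OA 10 fell (8.89%; median −1.02), among them Itgb2, the chain shared by the leukocyte integrins (−1.27 ± 0.243, edgeR adjusted p = 0.00723), and Cxcl2 (−1.79 ± 0.465, edgeR adjusted p = 0.0214). Without replicate 1 the falls were Icam1, Itgb2, Selplg, Alox5ap and Itgal, 5 in number (5.1%), and Cxcl2 was not called (−1.48 ± 0.502, edgeR adjusted p = 0.0869). Without replicate 2 they also numbered 5. Csf3, which encodes G-CSF, had at most 2 counts in any library.

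Of 8 transcription factors of granulocyte development, Spi1 (PU.1) and Irf8, both also active in macrophages, rose in each of the 3 comparisons with CD and fell in MASH OAL against MASH OA (Spi1 by 1.12, SE 0.232, edgeR adjusted p = 0.00916), with and without replicate 1. These rises, 2 of 8 each time, stand against 20.4% (MASH), 27.8% (MASH OA) and 10.2% (MASH OAL) of all tested genes. The falls, also 2 of 8, stand against 8.89% (5.1% without replicate 1). The rises in MASH OAL against CD were lost without replicate 1. Cebpa fell in MASH against CD (−0.35 ± 0.117, edgeR adjusted p = 0.0314) and Cebpb in MASH OA against CD (−0.58 ± 0.196, edgeR adjusted p = 0.0235), where 15.1% and 24.9% of all tested genes were called lower. In each comparison no factor was called lower in 3 of the 14 fits that left out 1 library, and hepatocytes express both genes. Cebpe, which drives the secondary granule genes, had a log2 fold change of 0.02 ± 0.213 in MASH OAL against MASH OA (edgeR adjusted p = 0.961). The median over the 8 factors was 0.29 in MASH against CD and 0.04 in MASH OAL against MASH OA.

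Of 8 receptors of calprotectin and related S100 genes, 6 rose in MASH against CD (20.4% of all tested genes; median 1.10), 6 in MASH OA against CD (27.8%; median 1.21) and 4 in MASH OAL against CD (10.2%; median 0.65). S100a4 rose by 3.22 ± 0.308 (edgeR adjusted p = 1.57e-05) and S100a11 by 3.53 ± 0.335 (edgeR adjusted p = 1.84e-05) in MASH against CD, and Tlr4, a receptor of calprotectin, by 1.13 ± 0.205 (edgeR adjusted p = 0.00114). All 3 fell in MASH OAL against MASH OA together with S100a6 (4 of 8, against 8.89% of all tested genes; median −0.69). Without replicate 1 of MASH OAL 3 of 8 fell (5.1%), S100a6 being lost, and without replicate 2 the count was 2. Between either treated group and MASH, edgeR called no gene of the 5 lists and the primary granule list. At an unadjusted p under 0.05 in MASH OAL against MASH, 9 recruitment, 6 circulating, 5 granule, 3 S100 and 2 transcription factor genes were lower, as were 10.1% of all tested genes. In the other direction 1 recruitment and 1 transcription factor gene were higher, as were 8.02% of all tested genes. In the same order of lists DESeq2 called 4, 1, 3, 1 and 2 genes lower and none higher (6.03% of all tested genes in either direction), and limma voom 2, 1, 2, 0 and 0 (3.83%). In MASH OA against MASH the unadjusted count was 2 recruitment, 1 circulating, 4 granule, 1 S100 and 1 transcription factor gene higher and none lower, where 3.06% of all tested genes were higher. Neither tool called any of them, and over all tested genes they called 0.0191% (DESeq2) and 0% (limma voom).

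The levels of the genes over the libraries followed each other to different degrees, described here by Pearson's r (and Spearman's rho) of log2 CPM over 14 libraries, those of a group sharing its treatment. S100a8 and S100a9 had r = 0.98 (rho 0.95), and 0.97 over the 13 libraries without MASH OAL replicate 1. Ngp and Ltf had r = 0.92 (rho 0.69), and 0.79 without it. Csf3r and S100a8 had r = 0.56 (rho 0.73) with that library and 0.83 (rho 0.82) without it, and Csf3r and Ltf 0.51 (rho 0.72) and 0.81 (rho 0.82). Among genes outside the 8, Cd177, a surface protein of neutrophils, was the most alike both to the sum of S100a8, S100a9, Csf3r, Ly6g and Retnlg (r = 0.92, 0.864 without that library) and to the sum of Ngp, Camp and Ltf (r = 0.933, 0.885 without it). Next in the first were Rab44, Ifitm6, Pou2f2, Irak3, Mmp9, Gmfg and Slc2a3 (r = 0.885 to 0.899), with r = 0.852 to 0.936 without that library. In the second they were Adamdec1, Scn8a, Prtn3, Elane, Ifitm6, Gimap6 and Pou2f2 (r = 0.793 to 0.896). There the likeness of some rested on MASH OAL replicate 1, without which r was 0.594 for Gimap6, 0.605 for Elane and 0.697 for Scn8a, and 0.746 to 0.838 for the others. Without the 2 libraries farthest from the median, MASH OAL replicate 1 and MASH OA replicate 2, Elane had r = 0.411.

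The shared stretch of chromosome 9 did not move as a whole. Between the outer ends of Camp and Ltf lie 54 annotated genes, of which 21 were tested. The 19 of them outside the 8 genes had levels in MASH OAL replicate 1 of 0.623 to 2.59 times the median of the other 13 libraries, with a median ratio of 0.937, whereas Ngp was at 129 times and Ltf at 88.4 times that median.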

How the data were processed

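For each Ensembl gene and each of 14 libraries, a deposited table gave expected counts. The submitters' processing notes name GRCm38, HTSeq and DESeq2 1.42.1 without saying what each did to make them. Between 5.09% and 5.76% of the expected counts of a library were fractional, and they were rounded to whole counts. The authors' 6 tables of comparisons were not used, since their letters have no key. Groups were read from titles. Symbols and positions came from GENCODE M21 on GRCm38, which held 45143 of 45706 gene identifiers.

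Genes were kept with edgeR's filterByExpr (minimum count 10, minimum total 15), which left 15674. One model in edgeR 4.0.16 (R 4.3.3) held all 14 libraries. It used TMM scaling and the two-sided quasi-likelihood F test with robust settings, adjustment followed Benjamini and Hochberg over all tested genes, and the threshold was 0.05. The code was tested on simulated data. Intervals of fold changes are 95% intervals of that fit. Strand use in the counting is not given, so reads of a gene and of a transcript antisense to it cannot be told apart. In 18 pairs of replicates the mean chi-square of a gene's counts lay between 25 and 167.8, far over the value of about 1 for repeat counting, so no library was treated as a copy of another.

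The 8 genes and the gene lists were chosen with earlier results of these data known, among them the high library. All 8 genes are named. Of each list, genes past the threshold may be named, up to 4 with the smallest p; further list genes named in the text were chosen after their values were seen. The genes most alike were the 8 with the highest Pearson's r of log2 CPM (prior count 2) for each of the 2 sums. Alternative settings were scaling by relative log expression, no low-count filter, DESeq2 1.42.0, limma 3.58.1 voom with sample weights, compared groups alone, a replicate block, groups from the treatment tags, both libraries with contradictory labels left out, and each library left out. The full refit without MASH OAL replicate 1 and the list counts under every alternative were added after seeing the data.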

Additional observations from a re-analysis of the deposited data

Results flagged for a closer look

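Within groups of 4 libraries, 16 sets of values (8 genes in MASH OA and in CD) were examined for a library far from the others, and 2 were found. A chance rate of about 1 in 20 does not hold for counts as low as those of Camp in CD. No conclusion is thus drawn from the number found. Retnlg in MASH OA replicate 2 was 0.852 CPM, against 0.361 to 0.435 CPM in the other MASH OA libraries. Camp in CD replicate 1 was 0.0288 CPM, which is 1 count, against 0 in the other CD libraries. Groups of 3 libraries, and so MASH OAL replicate 1, were not examined in that way.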

How the results depend on the processing

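The count of the 8 genes called was 1 in MASH against CD and 0 in MASH OA against MASH and in MASH OAL against MASH under every alternative run. The share of all tested genes called under the same setting follows each count in brackets. In MASH OA against CD it was 1 (52.6%), and 2 with the compared groups alone (51.3%), 6 with groups from the treatment tags (36.9%), 3 with both contradictory libraries left out (44%) and 1 to 4 with each library left out (44.7% to 53.5%), 4 being without MASH OAL replicate 1. In MASH OAL against CD it was 2 (14.5%), and 1 with no low-count filter (7.4%; Camp, edgeR adjusted p = 0.0485), DESeq2 (20.6%) or voom (20.6%), 0 with the compared groups alone (13.2%), the replicate block (11.8%), the tags (4.08%) or both libraries left out (9.81%), and 0 to 3 with each library left out (6.13% to 15.5%). In MASH OAL against MASH OA it was 1 (16.2%), and 0 with the tags (0%) and 0 to 3 with each library left out (4.73% to 19.5%), 0 being without MASH OAL replicate 2, 2 without replicate 4 and 3 without replicate 1.

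Of 764 values of single genes under an alternative, 664 kept direction and side of the threshold, 27 lost the call, 15 gained one and 58 turned in sign, 42 of these where MASH OAL replicate 1 was left out or regrouped. Log2 fold changes that turned with groups from the treatment tags were S100a8 −0.66, S100a9 −1.14, Retnlg −0.56, Ngp −0.91 and Ltf −0.75 in MASH OAL against CD, S100a8 −1.43, S100a9 −1.89, Retnlg −0.37, Ngp −2.75 and Ltf −2.97 in MASH OAL against MASH and S100a8 −3.22, S100a9 −3.57, Retnlg −1.89, Ngp −6.26 and Ltf −6.24 in MASH OAL against MASH OA. With both contradictory libraries left out they were S100a8 −0.66, S100a9 −1.13, Retnlg −0.56 and Ltf −0.75 in MASH OAL against CD, S100a8 −1.40, S100a9 −1.98, Retnlg −0.18 and Ltf −2.78 in MASH OAL against MASH and S100a8 −2.11, S100a9 −2.50, Retnlg −1.42 and Ltf −3.41 in MASH OAL against MASH OA. With voom and sample weights they were S100a8 −0.59, S100a9 −1.06 and Ltf −0.82 in MASH OAL against MASH, S100a8 −0.84, S100a9 −1.07, Retnlg −0.47, Ngp −0.43 and Ltf −0.81 in MASH OAL against MASH OA and Ltf −0.002 in MASH OA against MASH, and with the replicate block S100a9 −0.085 in MASH OAL against MASH, S100a8 −0.048, S100a9 −0.14 and Retnlg −0.12 in MASH OAL against MASH OA and Ltf −0.17 in MASH OA against MASH. For voom and the block the cause was not tested.

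With each library left out in turn, the ranges were S100a8 −0.66 to 3.01, S100a9 −1.14 to 2.85, Retnlg −0.56 to 1.42, Ngp −0.91 to 6.56 and Ltf −0.75 to 6.82 in MASH OAL against CD, S100a8 −1.40 to 2.27, S100a9 −1.98 to 2.01, Retnlg −0.18 to 1.81, Ngp −1.71 to 5.61 and Ltf −2.78 to 4.96 in MASH OAL against MASH, S100a8 −1.98 to 1.70, S100a9 −2.32 to 1.67, Retnlg −1.28 to 0.72, Ngp −3.25 to 3.94 and Ltf −3.41 to 3.92 in MASH OAL against MASH OA and S100a9 −0.19 to 0.54 and Ltf −0.20 to 1.86 in MASH OA against MASH. The lowest values were those without MASH OAL replicate 1, and in MASH OA against MASH those without MASH OA replicate 2. In MASH OAL against MASH OA, Csf3r stayed between −1.34 and −0.97 in all alternatives and lost its call with the tags and without MASH OAL replicate 2.

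Equal replicate numbers did not pair the libraries: of 18 pairs with the same number 6 had a correlation of deviations over 0.1 (−0.245 to 0.423), and 3 of 14 libraries correlated best with their own number. Over all tested genes, the calls in MASH OAL against MASH were 11, and 945 with DESeq2, in MASH OAL against CD 976 to 2427 with each library left out, and in MASH OAL against MASH OA 756 to 3043. Depth limits Ly6g and Camp, with 12 counts or fewer in all but 1 value, and Ngp and Ltf outside MASH OAL replicate 1.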

Other observations

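Granule genes of other granulocytes were also high in MASH OAL replicate 1. Epx, the eosinophil peroxidase, had 45 counts there (0.966 CPM) and 0 in each of the other 13 libraries. Prg2, the eosinophil major basic protein, measured 3.18, 0 and 0 CPM in MASH OAL, against 0 to 0.14 CPM in MASH OA, 0.0207 to 0.0819 CPM in MASH and 0 to 0.0593 CPM in CD libraries. Prss34, a protease of basophils, had 26 counts in MASH OAL replicate 1 and at most 2 elsewhere. Siglecf, a surface receptor of eosinophils, went another way, at 0.193, 0.337 and 0.469 CPM in MASH OAL, 0.682 to 2.0 CPM in MASH OA, 0.807 to 1.51 CPM in MASH and 0 to 0.148 CPM in CD libraries.

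Genes with at least 20 counts in a library and at least 5 times the level of any other library numbered 15 in MASH OAL replicate 1, among them Ngp, Camp, Ltf, Mpo, Ctsg, Epx, Prg2, Ear1, Prss34 and Itgb2l. The number was 13 in CD replicate 1, 4 in MASH OAL replicate 2 and 0 or 1 in each other library.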
